A study of Mus musculus with 5 samples.

Results

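The Reg lectin family was followed in RNA of primary pancreatic acinar cells through 6 genes, Reg1, Reg2, Reg3a, Reg3b, Reg3d and Reg3g, taken by symbol from count tables of 23284 gene symbols. All 6 symbols were present in each table. Arid1afl/fl;p48-Cre mice gave 3 knockout libraries and p48-Cre mice gave 2 control libraries, all on a C57BL/6 background and 8 weeks old. Both groups carry p48-Cre, a Cre recombinase made from the p48 (Ptf1a) locus, which is active in pancreatic progenitors and acinar cells. In the knockout it removes a floxed part of Arid1a, which encodes a DNA-binding subunit of the SWI/SNF chromatin remodelling complex. The cells were freed from pancreas by enzyme digestion and rested in medium with serum for 1 hour before RNA was taken. The labels number the libraries within a group without saying that each came from its own animal, so each p-value speaks only to how much these libraries varied, which may be technical.

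Reg genes encode small secreted proteins built around a single C-type lectin domain. Reg1, also called pancreatic stone protein, is a standing product of healthy acinar cells, and Reg2 is its close relative. The Reg3 genes are best known as pancreatitis-associated proteins: their RNA is low in resting acini and rises sharply when the exocrine pancreas is injured, and in the gut the same lectins act on bacteria. Cytokines that signal through gp130 or the interleukin-22 receptor and STAT3 are known inducers of the Reg3 genes.

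The 6 genes lie side by side on chromosome 6, in the order Reg3b, Reg3d, Reg3a, Reg2, Reg1 and Reg3g, and the only other RefSeq gene among them is the pseudogene Gm52853. The DNA before each start site is shown because the family is compared here as a gene cluster; Reg3b and Reg3g, whose order over the knockout libraries differed, are shown over a longer stretch. The sequences are from RefSeq on build GRCm38.p6, which is not the mm9 build named for the count files, and each runs 5′ to 3′ on the gene's own strand up to the base before the transcript start. The first 2 are 250 bases long, Reg3b at chr6:78370635-78370884 on the plus strand and Reg3g at chr6:78468875-78469124 on the minus strand. The others are the last 100 bases, Reg1 at chr6:78425883-78425982, Reg2 at chr6:78405055-78405154 and Reg3a at chr6:78380609-78380708 on the plus strand, and Reg3d at chr6:78378866-78378965 on the minus strand. Capitals mark the TATA box letters TATAAA on the gene's strand and, in Reg3b, the STAT-type letters TTCNNNGAA.
Reg3b: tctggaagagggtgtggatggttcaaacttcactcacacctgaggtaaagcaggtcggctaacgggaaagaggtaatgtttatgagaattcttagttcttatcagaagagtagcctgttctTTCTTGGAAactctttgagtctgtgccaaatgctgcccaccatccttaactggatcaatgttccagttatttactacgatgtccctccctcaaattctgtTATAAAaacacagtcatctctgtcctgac
Reg3g: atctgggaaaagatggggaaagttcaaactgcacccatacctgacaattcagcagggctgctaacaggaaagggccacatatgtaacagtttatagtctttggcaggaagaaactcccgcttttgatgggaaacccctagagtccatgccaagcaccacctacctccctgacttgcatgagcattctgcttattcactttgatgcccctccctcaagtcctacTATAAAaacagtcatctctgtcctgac
Reg1: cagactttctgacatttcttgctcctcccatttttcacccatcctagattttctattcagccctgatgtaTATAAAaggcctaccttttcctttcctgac
Reg2: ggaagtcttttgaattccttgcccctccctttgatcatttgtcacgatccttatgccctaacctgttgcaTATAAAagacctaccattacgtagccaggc
Reg3a: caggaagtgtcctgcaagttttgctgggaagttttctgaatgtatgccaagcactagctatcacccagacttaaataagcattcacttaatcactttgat
Reg3d: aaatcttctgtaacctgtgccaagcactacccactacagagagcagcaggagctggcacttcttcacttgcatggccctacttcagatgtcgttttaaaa
TATAAA began 30 bases before the start of Reg1 and of Reg2, 29 bases before that of Reg3b and 27 bases before that of Reg3g. No TATAAA was found in the windows of Reg3a and Reg3d. On either strand, 13.6% of 32851 RefSeq promoter windows (250 bases before to 50 bases after a start) hold these letters.

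Other motifs were searched on both strands of the same 300-base windows. TTCNNNGAA was found in Reg3b, 129 bases before the start, and in Reg3d, 238 bases before it, and 8.30% of all windows hold it. The wider STAT form, TTC and GAA with 4 bases between them, and the AP-1 letters TGANTCA were each found in Reg1 alone of the 6, against 6.95% and 7.81% of all windows. TTTCCCA, part of the site of the acinar factor complex PTF1, was found in Reg1, Reg3d and Reg3g, against 8.06% of windows, and overlaps TTCNNNGAA in Reg3d. The forkhead letters TGTTTGC were found in Reg3a, against 5.07% of windows. The E-box letters CANNTG were found in all 6, but 72.3% of all windows hold them. The upstream sequences of Reg3b and Reg3g were 72.8% identical over 243 aligned bases, within the 70.1% to 79.1% seen over all pairs of members.

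The control libraries were shallow. Without Rn45s, the ribosomal RNA precursor, and Lars2, the knockout libraries held 3155357 to 3568906 counts, against 67514 and 72006 in the controls, where Rn45s alone took 72.6% and 82.2% of all counts. All levels are CPM, that is counts divided by this remaining total and scaled to the usual per-million unit. Taken as a floor, 3 counts equal 0.841 to 0.951 CPM in a knockout library but 44.4 and 41.7 CPM in the controls, and 21.5 CPM in both controls together. Both depth and the Rn45s share split the libraries along genotype, so genotype and library quality cannot be told apart. In these bulk samples, fewer cells of a type and less RNA per cell cannot be told apart either. The 18 acinar markers, summed to 505670 to 583296 CPM in the knockouts and to 544613 and 578188 CPM in the controls, with 17 of the 18 counted in every library and Amy2a5 at 0 in all. Of the 17 tested, none was called higher and 3 fell in the knockout, beside 0.193% and 1.6% of all tested genes. These 3 were Cela2a, an elastase, Cel, a lipase activated by bile salts, and Sycn, a zymogen granule protein. They averaged 8923 ± 920, 4834 ± 1218 and 9974 ± 8408 CPM in the knockouts (SD, n = 3) and 52314 ± 14850, 23403 ± 16612 and 33427 ± 17243 CPM in the controls (SD, n = 2), with adjusted p-values of 7.53e-05, 0.00550 and 0.0326 (edgeR). With TMM factors on the full table none of these 3 was called (adjusted p = 0.729, 0.925 and 0.638, edgeR), and the log2 fold change of Sycn turned to 0.75. Cel also lost the call without knockout 1 or control 2 (adjusted p = 0.577 and 0.579, edgeR), and Sycn without knockout 1, knockout 2 or control 1 (adjusted p = 0.866, 0.165 and 0.587, edgeR). Pnlip, the pancreatic lipase, had 15408, 18322 and 20583 CPM in the knockouts and 29920 and 46871 CPM in the controls (log2 fold change -1.08 ± 0.47, SE, adjusted p = 0.261, edgeR; 1.06 with TMM factors on the full table). These 4 genes were chosen after their values were seen, and their part in the Reg values was not tested. Arid1a itself had 44, 121 and 42 counts in the knockouts and 0 and 3 in the controls (log2 fold change -0.07 ± 1.64, SE; adjusted p = 0.985, edgeR). Its whole-gene count includes exons outside a deleted part and does not check the genotype.

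Together the 6 genes were a larger part of the RNA in every knockout library. They took 4.67%, 2.51% and 2.31% of the counts in knockouts 1, 2 and 3, against 0.504% and 0.693% in controls 1 and 2. The mean was 31643 ± 13117 CPM in the knockouts (SD, n = 3) and 5983 ± 1339 CPM in the controls (SD, n = 2), a ratio of 5.29. On totals of all counts, Rn45s and Lars2 included, the ratio was 28.5. Set against the acinar markers in the same library, the family had 8.53, 4.96 and 3.96 counts per 100 marker counts in the knockouts and 0.925 and 1.199 in the controls. The lowest knockout library was above both controls by either measure. With Reg1 left out, the other 5 genes summed to 10817, 2548 and 2862 CPM in the knockouts, against 29.6 and 55.6 CPM in the controls, where they rest on 2 and 4 counts.

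**Figure D1:**
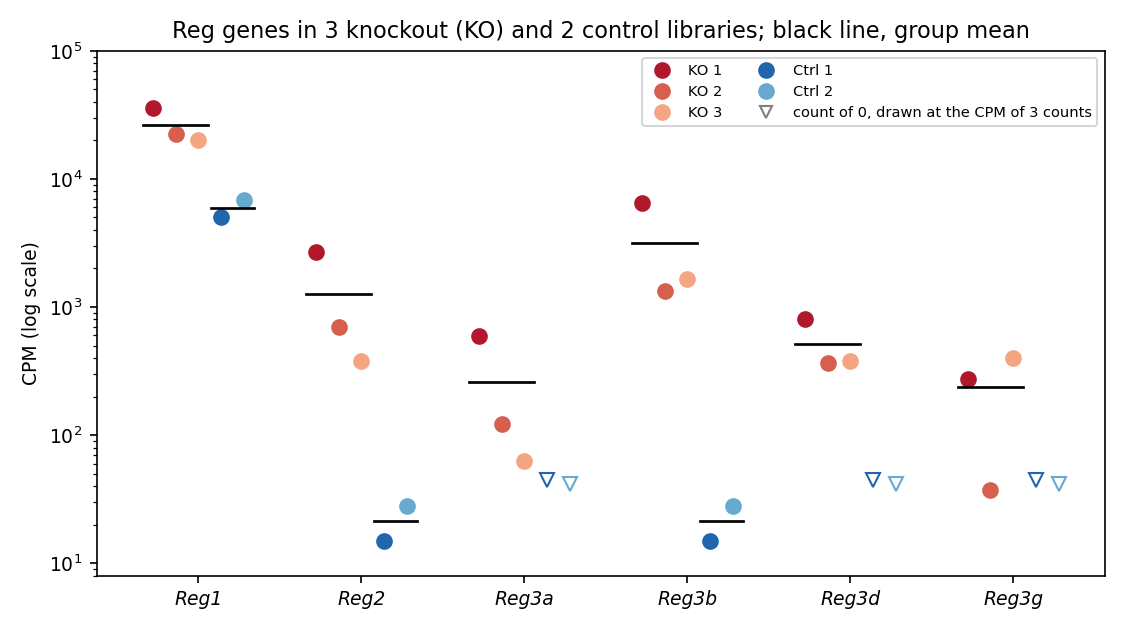
Level of each Reg gene in each library, in CPM on a log axis, with the 3 knockout libraries left of the 2 controls, a black line at each group mean above 0, and open triangles where a control had no count, drawn at the CPM that 3 counts equal there. Filled knockout points lie above the control points of the same gene, while Reg3g in knockout 2 (37.3 CPM) lies below the triangles.

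Knockout and control libraries were compared gene by gene to ask which transcripts differ when Arid1a is lost. All 6 Reg genes rose in the knockout (edgeR quasi-likelihood test, two-sided, Benjamini-Hochberg adjusted p under 0.05 over 8291 genes). In all, 16 genes were called higher, a background of 0.193%, so the 6 Reg genes stood beside 10 others, and 1.6% of genes were called lower. Tested genes as a whole had a median log2 fold change of 0.22. Apart from Reg1, the members passed the low-count filter through the knockout libraries, where they are high. All 6 had each knockout library above both controls, which also held for 35.6% of tested genes; for Reg3g the gap in knockout 2 is smaller than 3 counts in a single control.

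Reg1, the standing acinar member, had 35932, 22509 and 20262 CPM in knockouts 1, 2 and 3, against 5006 and 6874 CPM in the controls. It was the only member with ample counts in both groups, 338 and 495 in the controls, and its groups did not overlap. The mean was 26234 ± 8473 CPM in the knockouts (SD, n = 3) and 5940 ± 1321 CPM in the controls (SD, n = 2). Its log2 fold change was 2.14 ± 0.55 (SE; adjusted p = 0.0136, edgeR), and pooled counts gave a ratio of 4.35 (exact 95% interval 4.06 to 4.66, for counting error only). By count it was the 7th, 11th and 13th gene of the knockout libraries and the 22nd and 21st of the controls. Reg1 was thus among the most abundant RNAs in both groups.

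Reg2, the close relative of Reg1, had 2704, 697 and 379 CPM in the knockouts and 14.8 and 27.8 CPM in the controls. The controls held 3 counts in all, where the knockout mean of 1260 ± 1260 CPM (SD, n = 3) would have given 176. The pooled ratio was 56.8 (exact 95% interval 19.4 to 275; adjusted p = 0.000968, edgeR), and 25.3 without knockout 1. Its lowest knockout library would have given 52.9 control counts.

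Reg3b, pancreatitis-associated protein 1, was the most abundant Reg3 gene, with 6440, 1324 and 1639 CPM in the knockouts and 14.8 and 27.8 CPM in the controls. It too had only 3 control counts, against 437 at the knockout mean and 185 at the lowest knockout library. Its mean was 3134 ± 2867 CPM in the knockouts (SD, n = 3) and 21.3 ± 9.17 CPM in the controls (SD, n = 2), so the knockout libraries themselves varied widely. The pooled ratio was 141 (exact 95% interval 48.2 to 684) and 68.7 without knockout 1, and the adjusted p of 2.66e-07 (edgeR) was the smallest of the 6.

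Reg3d, listed in RefSeq also as Ingaprp, had no control count and 800, 367 and 381 CPM in the knockouts. Its knockout mean was 24.0 times the floor of 3 counts over both controls (adjusted p = 0.00207, edgeR). The exact 95% interval of pooled counts had a lower limit of 19.2. With only 1 control to set the floor, this multiple was 12.4 without control 1 and 11.6 without control 2. It was the steadiest Reg3 gene, with 51.2 control counts expected even at the level of its lowest knockout library.

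Reg3a and Reg3g were the lowest members. Reg3a, a paralogue of the pancreatitis-associated proteins, had 599, 122 and 62.5 CPM in the knockouts and no control count. Its knockout mean was 12.1 times the floor of 3 counts over both controls (adjusted p = 0.0192, edgeR). The exact 95% interval of pooled counts had a lower limit of 9.51. This multiple of the floor was 4.29 without knockout 1, and 6.27 and 5.88 without control 1 and without control 2. Reg3g, a lectin that binds the cell wall of Gram-positive bacteria, had 274, 37.3 and 401 CPM in the knockouts and no control count. Its knockout mean was 11.0 times the same floor (lower limit of the exact interval 8.77, adjusted p = 0.0250, edgeR). For Reg3g the multiple was 7.23 without knockout 3, and 5.69 and 5.34 without control 1 and without control 2. In knockout 2 Reg3g stood below the floor of either control. At that level 5.20 counts would be expected in both controls together, and at the lowest level of Reg3a 8.72. For both genes the lowest knockout library was thus near what the control depth can show.

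The calls depended on libraries and on scaling. Without knockout 1 none of the 6 passed in edgeR, with 5 at an unadjusted p under 0.05 and with Reg3b nearest (adjusted p = 0.0796), and no other gene was called higher (background 0%). Without control 1 there were 4 (Reg1 and Reg3g lost; background 0.17%), and without control 2 also 4 (Reg3a and Reg3g lost; 0.13%). Without knockout 3 there were 5 (Reg3g lost; 0.292%), and without knockout 2 all 6 passed (0.281%). With TMM factors on the full table, which put the median log2 fold change of all genes at 2.05, Reg2, Reg3b and Reg3d were called (3 of 6; background 0.0605%), and Reg1 was not (log2 fold change 4.16, adjusted p = 0.0627), its fold change having moved with the scale. Upper quartile factors called the same 3 (0.133%). With limma-voom none of the 6 was called, as was no other gene in that direction (background 0%), and 4 of the 6 had an unadjusted p under 0.05. DESeq2 called 5, all but Reg1 (0.519%).

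**Figure D2:**
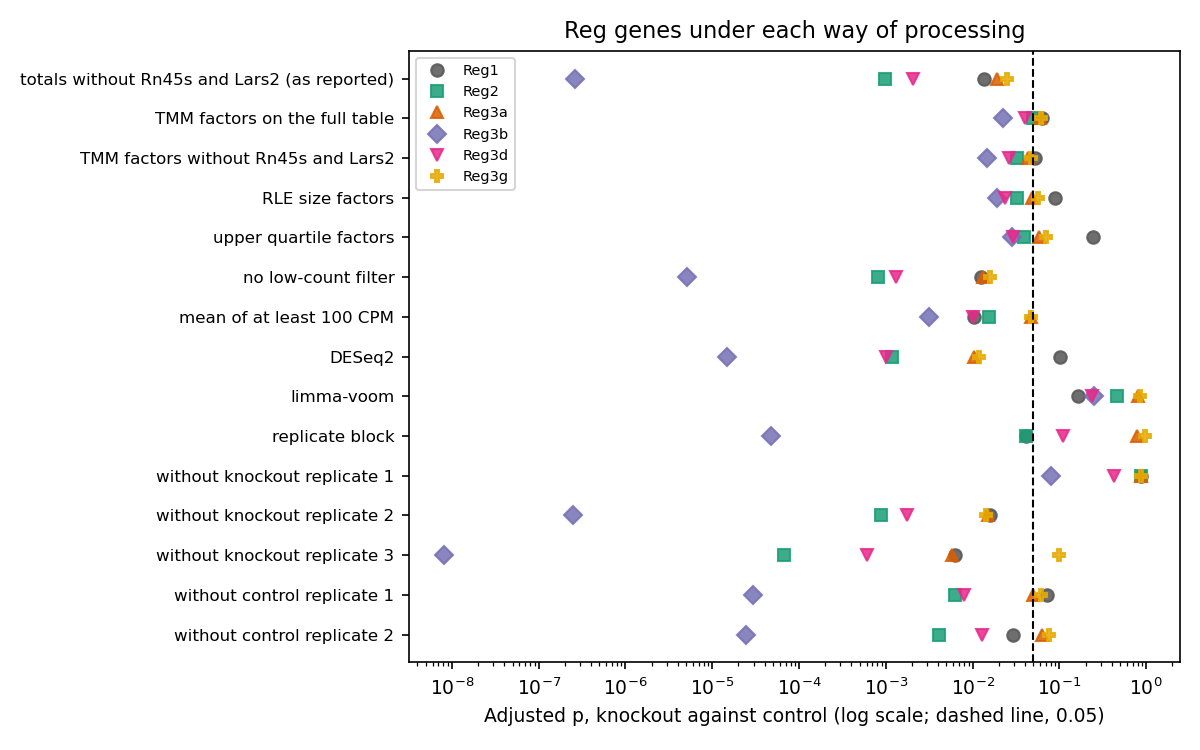
Adjusted p of each Reg gene for knockout against control (log axis) under the reported processing, in the top row, and 14 alternatives, 1 row each, with the dashed line at 0.05. Reg3b lies left of the line in all rows but limma-voom and the row without knockout 1, whereas Reg3g lies right of it in 9 alternatives.

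The make-up of the family also differed, a measure that does not depend on the library total. Reg1 held 76.9%, 89.8% and 87.6% of the family's counts in knockouts 1, 2 and 3, against 99.4% and 99.2% in the controls. The exact 95% binomial intervals reached at most 90.0% in a knockout and down to 97.9% in a control, so they did not overlap, though they cover counting error only. Reg3b held 13.8%, 5.28% and 7.09% in the knockouts, against 0.294% and 0.401% in the controls. Reg2 held 5.78%, 2.78% and 1.64% in the knockouts, against the same 0.294% and 0.401% in the controls. Divided by transcript length, Reg1 held 73.7%, 88.1% and 85.8% in the knockouts and 99.3% and 99.0% in the controls, and the order Reg1, Reg3b, Reg2 at the top was shared by the 3 knockout libraries.

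Reg3a, Reg3d and Reg3g had no share in the controls, where exact 95% upper limits for a count of 0 were 1.08% and 0.737% of the family's counts. Reg3d kept a nearly even share in the knockouts, 1.71%, 1.46% and 1.65%. Reg3a held 1.28%, 0.486% and 0.270% there, and Reg3g 0.586%, 0.149% and 1.73%. So Reg3d lay above the control limits in all 3 knockout libraries, while Reg3a and Reg3g did so in 1 library each.

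Within the Reg3 counts of the knockouts, Reg3b was the main product at 79.4%, 71.6% and 66.0%. Reg3d made up 9.86%, 19.8% and 15.3% and Reg3a 7.38%, 6.59% and 2.52%. Reg3g made up 3.38%, 2.01% and 16.1%, so it was the least of the 4 in knockouts 1 and 2 and second in knockout 3. Per kilobase of transcript, the levels in knockouts 1, 2 and 3 were 8224, 1691 and 2094 CPM for Reg3b and 3874, 999 and 543 CPM for Reg2. The same quantity was 355, 48.3 and 520 CPM for Reg3g, which overtook Reg3d (1023, 469 and 487 CPM) in knockout 3 only. Among all genes of a library by count, Reg3b ranked 21st, 37th and 33rd in the knockouts, Reg2 ranked 31st, 64th and 58th, and Reg3g ranked 104th, 1761st and 54th.

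**Figure D3:**
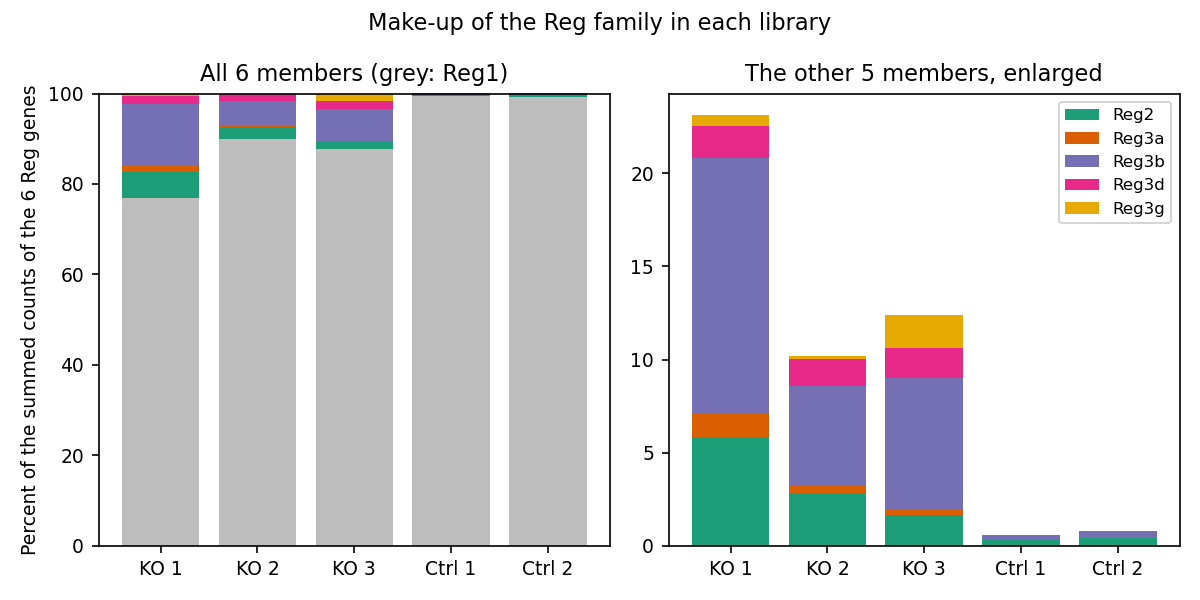
Percent of the summed counts of the 6 Reg genes held by each gene in each library, for all 6 genes (left) and enlarged for the 5 genes other than Reg1 (right). Reg3b, the largest of the 5 in the knockouts, reaches 5.28% to 13.8% there and 0.294% and 0.401% in the controls.

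Because control counts were few, each member was also set against the 833 Reg1 counts of the controls. Reg3b stood at 17.9, 5.88 and 8.09 counts per 100 Reg1 counts in the knockouts. At the lowest of these ratios 49.0 Reg3b counts would accompany the Reg1 counts of the controls, where 3 were found. Reg2 would have had 15.6 where 3 were found, and Reg3d 13.6 where none was found. For these 3 genes the controls lay below the lowest knockout ratio to Reg1. For Reg3a and Reg3g the lowest knockout ratio gives 2.57 and 1.38 counts, under the floor of 3, so a difference from Reg1 was not detectable against that library.

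**Figure D4:**
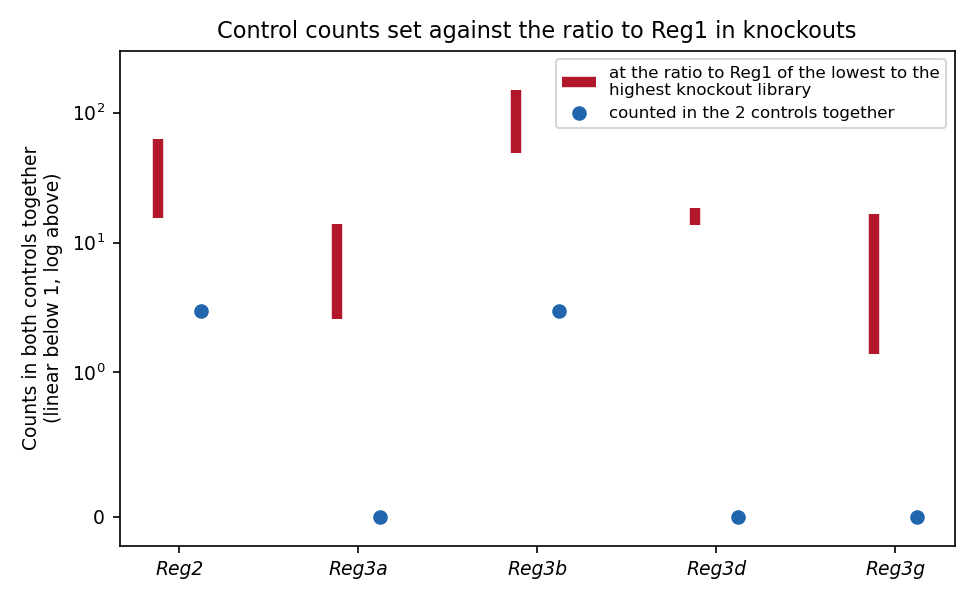
Counts of 5 Reg genes that would stand beside the 833 Reg1 counts of the controls at the ratio to Reg1 seen in the lowest to the highest knockout library (red bars), and the counts found in both controls together (blue points), on an axis that is linear below 1 and logarithmic above. The points of Reg2, Reg3b and Reg3d lie well below their bars, while the bars of Reg3a and Reg3g start at 2.57 and 1.38.

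The members did not share an order of the 3 knockout libraries. Knockout 1 was highest for Reg1, Reg2, Reg3a, Reg3b and Reg3d, 5 of the 6, whereas Reg3g was highest in knockout 3. Of 297 genes averaging 100 CPM or more over the knockouts, knockout 1 was highest for 45 (15.2%), knockout 2 for 190 and knockout 3 for 62 (20.9%).

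The size of the spread between knockout libraries differed widely between members. The highest library exceeded the lowest by 1.77-fold for Reg1 (exact 95% interval 1.76 to 1.79) and 2.18-fold for Reg3d (2.04 to 2.33). It did so by 4.86-fold for Reg3b (4.71 to 5.02) and 7.13-fold for Reg2 (6.72 to 7.57). Reg3a differed 9.59-fold (8.31 to 11.1) and Reg3g 10.7-fold (8.99 to 12.9). The median over the 297 genes was 2.63-fold, so Reg1 and Reg3d varied less than the typical abundant gene and the other 4 more.

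Reg2 and Reg3a kept the closest common course over the 3 knockouts. Their centred log2 CPM values differed by a root mean square of 0.18, as did those of Reg1 and Reg3d. Reg3g stood 1.34 to 1.93 from each other member. Reg3d and Reg3b were both lowest in knockout 2, but in knockout 3 Reg3d was only 1.04-fold higher than there, an interval of 0.959 to 1.12 that includes no difference. These distances describe 3 libraries of 1 group and were not tested.

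**Figure D5:**
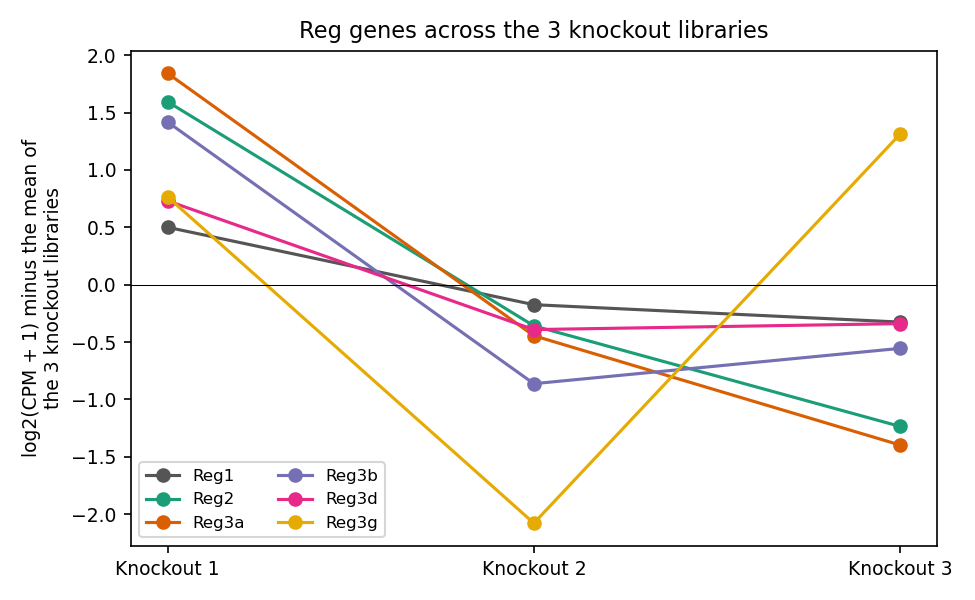
Each Reg gene in knockouts 1, 2 and 3 as log2(CPM + 1) minus its own mean over the 3 libraries; lines join the points of a gene and imply no order of libraries. Reg3g is lowest in knockout 2 and highest in knockout 3, while the other 5 genes peak in knockout 1.

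The course over the 3 knockout libraries was compared with 291 other genes of at least 100 CPM in the knockouts. Nearest to the family sum were 1810009J06Rik (root mean square difference 0.05), S100g, a calcium-binding protein (0.12), and Rps14, a ribosomal protein (0.14). 1810009J06Rik and S100g had no control count and were called higher in the knockout (adjusted p = 0.00638 and 0.038, edgeR). Rps14 was not called (adjusted p = 0.143, edgeR). Rps14 was also nearest to Reg1 (0.05) and S100g to Reg3d (0.05) and to Reg3b (0.51). Lrg1, an acute-phase glycoprotein, was nearest to Reg2 (0.38) and Reg3a (0.52). Spink3, the trypsin inhibitor, was nearest to Reg3g, at a larger distance of 0.88. With so few libraries, many genes can share a course.

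Genes of the inducing pathway were measured mostly at low levels. Of 31 cytokines, receptors and JAK-STAT3 components, 20 were tested and none passed in either direction (edgeR). Their median log2 fold change was 1.27, beside 0.22 over all tested genes, and 8 of the 20 had no control count, as had 33.5% of all tested genes. Socs3, the feedback inhibitor that STAT3 induces, had 76.4, 118 and 13.8 CPM in the knockouts and no control count (adjusted p = 0.243, edgeR). Stat3 had 40.9, 81.3 and 5.98 CPM in the knockouts and no control count (adjusted p = 0.378, edgeR). Both were highest in knockout 2 and lowest in knockout 3. Knockout 2 was also highest for 190 of the 297 genes averaging 100 CPM or more over the knockouts. A link between Stat3 or Socs3 and the Reg genes was not tested. Lifr, the receptor of leukaemia inhibitory factor, had 68.8, 81.8 and 19.7 CPM in the knockouts and 74.1 and 125 CPM in the controls (log2 fold change -0.81 ± 1.26, SE; adjusted p = 0.715, edgeR). Il22 had no count in any library, and Il22ra1, its receptor chain, had 38.3, 47.1 and 19.4 CPM in the knockouts and no control count, with fewer than 5 control counts expected at the knockout mean (4.88). Stat3, Il22 and Il22ra1 were chosen after their values were seen.

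Of 28 acute-phase and injury genes linked to STAT3, 16 were tested. Lrg1 rose and no other passed in either direction (edgeR), beside 0.193% of all tested genes called higher and 1.6% called lower. The list's median log2 fold change was 2.06, beside 0.22 over all tested genes, and 6 of the 16 had no control count, against the same 33.5%. Lrg1 had 365, 180 and 65.2 CPM in the knockouts and no control count. Its knockout mean was 9.45 times the floor of 3 counts over both controls (lower limit of the exact interval 7.55, adjusted p = 0.0379, edgeR). Lrg1 stood at 5.69 times the floor of the controls kept without knockout 1, 4.88 without control 1 and 4.57 without control 2. It lost the call without knockout 1, without knockout 2, without control 1 and without control 2, with adjusted p-values of 0.866, 0.0554, 0.0845 and 0.101 (edgeR), and also with TMM factors on the full table (adjusted p = 0.0572, edgeR) and with limma-voom (adjusted p = 0.659).

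Receptors and upstream inputs of the family were few. Of 6 genes, 3 were tested and none passed in either direction (edgeR). Extl3, described as a receptor of Reg proteins, had 33.9, 60.5 and 31.1 CPM in the knockouts and 14.8 and 55.6 CPM in the controls (log2 fold change 0.24 ± 1.52, SE; adjusted p = 0.941). Cckar, the cholecystokinin receptor of mouse acinar cells, had 122, 216 and 34.1 CPM in the knockouts and 29.6 and 0 CPM in the controls (adjusted p = 0.393). Reg4, the Reg gene that lies outside the cluster, had no count in any library, which allows up to the floor of 3 counts in each. Of it and 5 other C-type lectins none had enough counts to be tested. Clec3a and Clec3b, which had the highest means, reached at most 5 and 10 counts in a library.

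Reads of neighbouring or similar genes were also counted. The 3 nearest genes of the count table on each side of the cluster, Ctnna2, Lrrtm1 and 6330415B21Rik before it and Gm20362, Gm20594 and Lrrtm4 after it, had at most 3 counts in a knockout library and at most 5 in a control. The longest coding transcripts of the members in GENCODE M21 were 698 to 904 bases long and 70.6% to 81.5% identical to each other. No 50-base word of a member's transcript occurred in another member. Of the words of Reg1, 3.74% occurred in genes outside the family, and none did for the other 5.

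Markers of 5 other cell types or tissues were summed in each library, and none of those tested passed in either direction (edgeR). Small intestine epithelium, where Reg3 genes are also made, summed over 18 markers to 38.7, 56.6 and 27.5 CPM in the knockouts and 118 and 27.8 CPM in the controls, with 2 tested. Of these markers Fabp1, Fabp2, Apoa4, Alpi, Defa24, Cdx1 and Cdx2 were at 0 in all 5 libraries. Tff3, however, had 33.6, 40.3 and 9.87 CPM in the knockouts and no control count. The sum in control 1 came from 8 counts of Apob, which had none in the knockouts. Immune markers (13 genes) summed to 163, 512 and 118 CPM in the knockouts and 163 and 181 CPM in the controls, with 7 tested. Duct markers (10 genes) summed to 423, 1289 and 276 CPM in the knockouts and 785 and 653 CPM in the controls, with 9 tested. Islet markers (12 genes) summed to 192, 1045 and 223 CPM in the knockouts and 104 and 708 CPM in the controls, with 10 tested. Markers of fibroblasts and endothelium (10 genes) summed to 130, 228 and 33.5 CPM in the knockouts and 14.8 and 167 CPM in the controls, with 7 tested. Of the islet (10), immune (7), and fibroblast and endothelium (7) markers tested, 7, 4 and 5 had no control count. Each of these shares was larger than the 33.5% of all tested genes. Median log2 fold changes of these 3 lists were 7.63, 6.59 and 7.28, beside 0.22 over all tested genes. These medians rest mostly on genes without a control count, whose fold changes have no measured control level and give no size. For Iapp, an islet marker without a control count, it was 9.16 ± 4.89 (SE). The sums of these 3 lists overlapped between knockouts and controls. For duct and small intestine markers the medians were 0.29 and 3.38. Among the knockouts each of these 5 sums was highest in knockout 2. Their part in the Reg values was not tested.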

How the data were processed

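Primary acinar cells gave 5 libraries, 3 knockout and 2 control, made with the TruSeq RNA v2 kit per the labels' protocols. Each deposited file gives raw counts of reads for gene symbols, which the authors had not normalized. Per the submitters' processing notes the tools included HTSeq 0.9.1 and TopHat2 2.1.1, with build mm9, beside Cuffdiff 2.2.1.5 and Cuffnorm 2.2.1.2. No role or order is stated. Annotation, strand setting and the treatment of multi-mapped reads were not given in the sources used here. Rn45s and Lars2 were left out, and CPM and library sizes used the remaining total.

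edgeR 4.0.16 in R 4.3.3 fitted group as the only term (glmQLFit, robust; filterByExpr; no scaling factor) over 8291 genes, with Benjamini-Hochberg adjustment. Counts were also simulated at the real depths (8730 genes tested). The test called 56% of 50 genes raised by a log2 change of 6 and 0% of 50 raised by 3. It called 85.3% of 34 lowered by 6, 12% of 50 lowered by 3, and 3 of 8546 unchanged genes. The changed genes were drawn from a range of mean levels below that of Reg1. Unchanged genes had a median log2 estimate of -0.648. Exact 95% intervals are binomial and, like the floor of 3 counts, cover counting error only. Alternatives were TMM, RLE and upper quartile factors, other low-count filters, DESeq2 1.42.0, limma-voom 3.58.1, a replicate block and each library left out.

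The members, lists and tests were chosen with earlier results of these data known. The scale on totals replaced an earlier TMM scale so that fold changes and CPM share a unit. Genes outside the family were named by rule: from each pathway list the called members (at most 4) or else the 2 most abundant, and the genes of at least 100 CPM in the knockouts nearest in log2(CPM + 1) over the 3 knockouts, 3 for the family sum and 1 for each member. TATAAA was added to the motifs after the sequences were seen. Sequences are from RefSeq (GRCm38.p6) for all 6 members, and transcripts from GENCODE M21, aligned with Biopython 1.88.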

Additional observations from a re-analysis of the deposited data

How the results depend on the processing

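All 6 Reg genes had a log2 fold change above 0 under each of the 14 alternatives. Of 84 such results 54 stayed called and 30 lost the call; Reg2 and Reg3b lost it in 2 alternatives each, Reg3d in 3, Reg3a in 6, Reg1 in 8 and Reg3g in 9. The 6 Reg genes called became 3 with TMM on the full table, with upper quartile factors and with the replicate block, and 0 with limma-voom, and ran from 0 to 6 with a library left out. Genes called higher numbered 16 as reported, 5 with TMM on the full table, 147 with TMM without Rn45s and Lars2, 43 with DESeq2, 0 with limma-voom (773 genes at an unadjusted p under 0.05 in either direction), 4 with the replicate block, and 0 to 19 with a library left out. Genes called lower numbered 133 as reported, 27 and 71 with these TMM factors, 81 with RLE, 354 with upper quartile, 898 without a low-count filter, 17 among genes of at least 100 CPM, 468 with DESeq2, 43 with limma-voom, 5 with the replicate block, and 4 to 378 with a library left out. The cause of these shifts was not tested. The family ratio of 5.29 was 28.5 on totals of all counts, since these include Rn45s, and 4.03 to 6.28 with a library left out. The Reg1 share, 84.8% in knockouts and 99.3% in controls, was 92.8% and 99.7% without Reg3b and, in controls, 99.2% per transcript length. The log2 fold change of Reg1, 2.14 as reported, was 4.16, 4.203 and 3.75 with TMM on the full table, TMM without both genes and RLE. That of Lifr turned to 0.86, 0.91 and 0.43 with these scalings, and that of Sycn, -1.74 as reported, to 0.75, 0.81 and 0.45, and that of Pnlip, -1.08 as reported, to 1.06, 1.098 and 0.66. That of Extl3, 0.24 as reported, was 2.102, 2.15 and 1.69 with these scalings and ran from -0.41 to 1.495 with a library left out, turning without control 1 (-0.41) and without knockout 2 (-0.12). That of Arid1a, -0.07 as reported, was 1.67, 1.71 and 1.24 with these 3 scalings, 0.65 with the block and -1.05 to 8.68 with a library left out, turning without knockout 1 (0.14), knockout 3 (0.17) and control 2 (8.68).

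Replicate numbers are shared by both groups, but the labels do not tie them to a shared animal or day. Deviations of same-numbered libraries from their group means had correlations of -0.02 and -0.01 over 301 genes. With 2 shallow controls, whose deviations mirror each other, these values cannot show whether libraries were paired. The block fit kept Reg1, Reg2 and Reg3b and lost Lrg1 (adjusted p = 0.962, edgeR). Control depth limits the values: 3 counts equal over 40 CPM in a single control, and Reg3a, Reg3d and Reg3g have no control count at all.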
